A study of Mus musculus with 6 samples.

Results

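The genes described here are interferon-stimulated effector and antigen genes: transcripts that cells make in answer to interferon and whose proteins block viruses, modify other proteins or present peptides to T cells. They were chosen as a list of 45 gene names, with the oligoadenylate synthetases and RNA sensors left out, and every non-control probe whose RefSeq accession belonged to one of them was used. Of the 45, 42 had a probe on the array (53 probes of 39429) and 37 gave a usable measurement among 22033 genes that were tested. Expression was measured in C2C12, a mouse myoblast line in long use, whose cells divide in rich serum and fuse into myotubes as they differentiate. All cells were kept in 10% serum. They were transfected with siRNA, given as "20 um" in the labels, when they covered 70 to 80% of the dish. The siRNA-NC group received negative control siRNA oligos, and the siRNA-MEG3 group received oligos directed at Meg3, a long non-coding RNA. The sample titles do not say how many sequences each group received. No untransfected cells, no interferon-treated cells and no second group with siRNA against Meg3 were analysed here. The hours between transfection and harvest are not stated in the labels.

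Interferons are secreted proteins, and cells release type I and type III interferons on sensing foreign nucleic acid. Type I and type III interferons signal through receptor-bound kinases to a complex that holds STAT2 and IRF9 and binds interferon-stimulated response elements (ISREs) in promoters, while interferon gamma acts at gamma-activated sites (GAS). IRF1, itself induced by interferon gamma, also binds ISRE-like sequences. Skeletal muscle cells respond to both types, and interferon gamma is a textbook inducer of class I antigen presentation in them.

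Each group had 3 single-colour Agilent arrays that the labels call biological replicates, but the arrays held fewer independent samples. In the siRNA-MEG3 group, the scatter of single spots on array 1 returned on array 3 (r = 0.978), as in a repeat scan. In the siRNA-NC group, arrays 1 and 3 agreed within sampling noise (ratio of probe to spot variance 1.08). The mean of either pair was used as 1 sample, which leaves 2 samples per group in every test. Array 2 of the siRNA-MEG3 group was also close to array 1 (ratio 1.12) and may be a technical replicate, so p-values measure only the spread between these samples. All siRNA-NC arrays came from 1 scan and the siRNA-MEG3 arrays from 2 others, so scan and group cannot be told apart. Meg3 itself could not check the labels: of its 3 probes, 1 was well above background on 1 siRNA-NC array and none on any siRNA-MEG3 array. On the arrays, 62.8 to 75.2% of spots were well above background, and no spot was saturated. Values below are log2 signals in which 0 is the 75th percentile of the same array. Fold changes are siRNA-MEG3 minus siRNA-NC on that scale, with limma's standard error (SE), and a gene "rose" or "fell" where limma's p, adjusted over all 22033 genes, was under 0.05.

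The upstream sequences of members are shown first, because they are where interferon signalling meets these genes. The windows are the 250 bases before the transcription start in RefSeq (GRCm38.p6), read 5′ to 3′ on the gene's strand. Of the 45 listed genes, 36 matched a window. The ISRE core was searched as GAAA, any 2 bases, GAAA on both strands, so that it also reads as TTTC, any 2 bases, TTTC. Rsad2 and Ifit3b, which rose, are printed with Ifit3, the close copy of Ifit3b, with Igtp, the GTPase gene with the smallest p, and with B2m, the antigen processing gene that holds a core. The last 3 were picked after their values had been seen. Capitals mark the ISRE cores. Rsad2 is at chr12:26456453-26456702 on the minus strand. The others are on the plus strand, Ifit3b at chr19:34607707-34607956, Ifit3 at chr19:34583279-34583528, Igtp at chr11:58199306-58199555 and B2m at chr2:122147437-122147686.
Rsad2: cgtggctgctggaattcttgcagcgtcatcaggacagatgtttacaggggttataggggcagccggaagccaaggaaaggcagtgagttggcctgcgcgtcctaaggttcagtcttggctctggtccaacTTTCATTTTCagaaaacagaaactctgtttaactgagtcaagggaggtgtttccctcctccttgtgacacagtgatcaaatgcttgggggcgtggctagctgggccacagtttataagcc
Ifit3b: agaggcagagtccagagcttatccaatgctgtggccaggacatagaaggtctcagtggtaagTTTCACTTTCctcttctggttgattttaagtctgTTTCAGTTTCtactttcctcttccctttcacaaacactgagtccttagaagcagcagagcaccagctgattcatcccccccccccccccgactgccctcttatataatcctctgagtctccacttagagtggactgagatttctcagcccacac
Ifit3: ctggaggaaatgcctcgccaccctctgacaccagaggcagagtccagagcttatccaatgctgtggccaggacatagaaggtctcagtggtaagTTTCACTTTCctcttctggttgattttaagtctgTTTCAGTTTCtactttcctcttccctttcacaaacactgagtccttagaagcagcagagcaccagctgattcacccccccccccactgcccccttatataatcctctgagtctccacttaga
Igtp: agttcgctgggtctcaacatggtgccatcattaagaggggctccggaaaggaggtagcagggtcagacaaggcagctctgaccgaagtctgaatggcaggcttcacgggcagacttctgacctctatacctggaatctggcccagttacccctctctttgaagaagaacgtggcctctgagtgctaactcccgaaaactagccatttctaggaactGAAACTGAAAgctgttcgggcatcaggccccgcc
B2m: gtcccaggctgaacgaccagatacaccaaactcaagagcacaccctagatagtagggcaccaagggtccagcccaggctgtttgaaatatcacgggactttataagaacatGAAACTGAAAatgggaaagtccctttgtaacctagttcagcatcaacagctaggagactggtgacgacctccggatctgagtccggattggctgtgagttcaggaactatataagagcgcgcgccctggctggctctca

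Of the 36 genes with a window, 16 held an ISRE core (44.4%), against 3.46% of the 27025 genes in the promoter table. Counted by window, the share was 34.8% of 46 windows against 2.98% of 32851. The GAS core, TTCNNNGAA on both strands, was in 19.4% of the 36 genes and in 8.13% of all genes. The cores were unevenly spread over the subgroups: all 4 GTPase genes with a window and 3 of 4 IFIT genes held an ISRE core, but only 1 of 6 antigen processing genes did, B2m. In Rsad2 the word TTTCATTTTC began 120 bases before the start. In Igtp the word GAAACTGAAA lay close to the start, at 34 bases, and in B2m the same word began at 139 bases. Ifit3 and Ifit3b carried the same pair of words, TTTCACTTTC and TTTCAGTTTC, and their windows were identical at 216 of 224 aligned positions (96.4%). A match of letters is a description of the window and was not tied to any binding in these cells.

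Across the 37 measured genes, 3 rose (8.11%), 0 fell and 34 were not called. Of all genes tested, 1.11% rose and 0.418% fell. Ifit3b was 4.06-fold, Usp18 6.05-fold and Rsad2 at least 4.72-fold higher with siRNA-MEG3. Rsad2 was not well above background on any control array and entered the test only through the siRNA-MEG3 group. Of the 36 members well above background on all arrays, 2 rose. The share among all genes that bright was not counted. The counts and medians that follow include Rsad2. Most members leaned the same way: 28 of the 37 fold changes were above 0, against 54.3% of all genes. The median was 0.34, against 0.06 over all genes. Set against the mean of the control samples, the members' median was 0.18 and -0.18 in siRNA-NC samples 1 and 2. It was 0.31 and 0.34 in siRNA-MEG3 samples 1 and 2. The control samples thus lay about as far from each other as the groups did. At an unadjusted p under 0.05, 13 members were higher (35.1%) and 1 was lower, where 12.2% and 7.35% of all genes were. All 3 siRNA-MEG3 arrays lay above all 3 siRNA-NC arrays for 19 members (51.4%), against 29.3% of all genes, and below them for 4, against 17.8%. The antigen processing genes stood on the other side of 0 from the rest: their median was -0.28 over 6 genes, against 0.55 over the 31 measured members outside that subgroup. The difference between these subgroups was not tested.

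**Figure D1:**
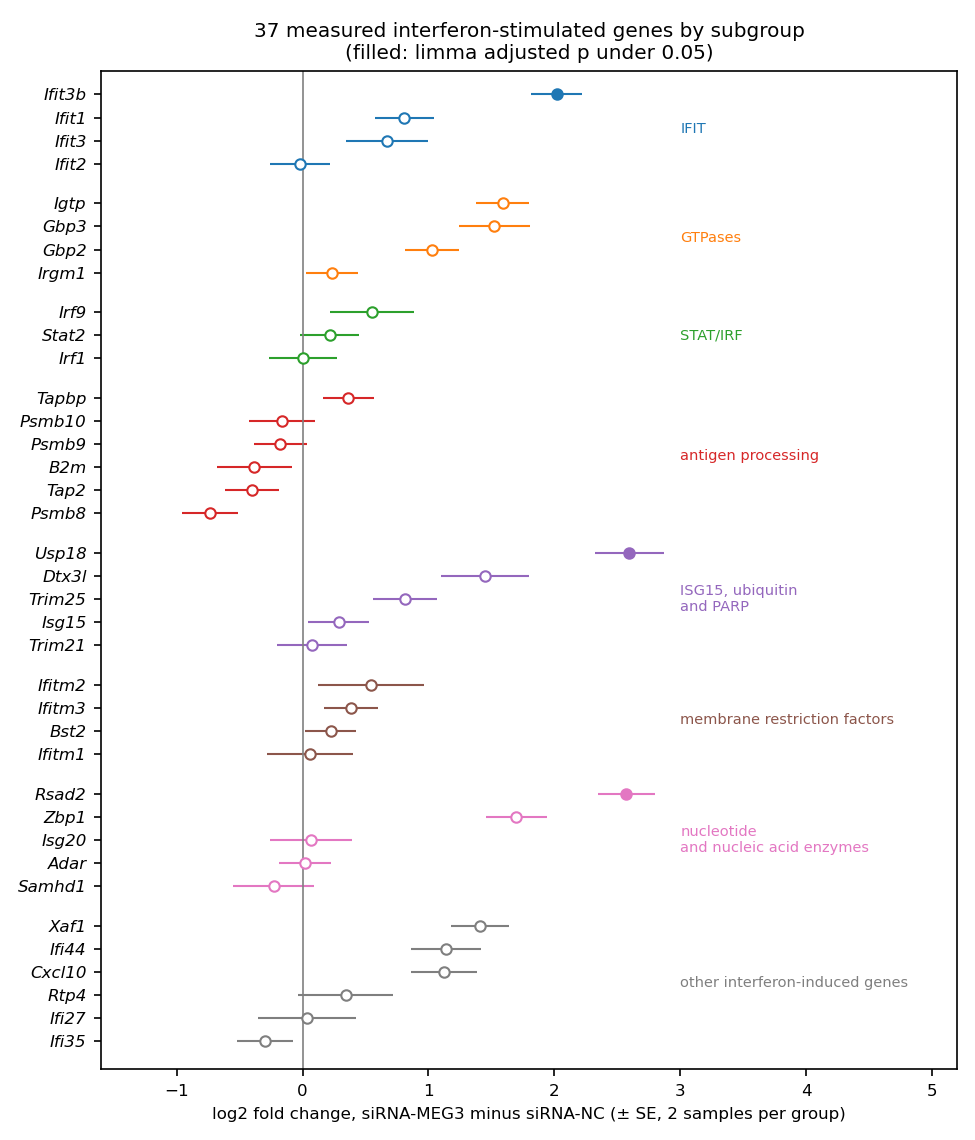
Log2 fold change (siRNA-MEG3 minus siRNA-NC, horizontal axis) of the 37 measured genes by subgroup, with bars for limma's SE from 2 samples per group; filled points passed an adjusted p of 0.05. Rsad2, Usp18 and Ifit3b are the filled points, and 5 of the 6 antigen processing genes lie left of 0.

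The control samples differed from each other more than the siRNA-MEG3 samples did. Over the 37 members, siRNA-MEG3 samples 1 and 2 differed by a median of 0.13 (largest for Ifit3, 0.69), and siRNA-NC samples 1 and 2 by a median of 0.38 (largest for Ifitm2, 1.06). Without siRNA-NC array 2, a lone control sample was left, taken to vary like the siRNA-MEG3 group. None of Rsad2, Usp18 and Ifit3b then kept its call. The median over the members was 0.20, against -0.04 over all genes. Without siRNA-MEG3 array 2, a lone siRNA-MEG3 sample was left, taken to vary like the controls. Of all genes, 5.98% then passed as higher, and of 39 measured members 7 did: Dtx3l, Gbp3, Ifit3b, Igtp, Rsad2, Usp18 and Zbp1.

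The interferon-induced proteins with tetratricopeptide repeats (IFIT) bind viral RNA ends and stop its translation. Of the 4 genes, 1 rose, 0 fell and 3 were not called, with a median of 0.74. Ifit3b read -2.55, -2.62 and -2.65 on the 3 control arrays and -0.57, -0.57 and -0.64 after siRNA-MEG3 (arrays always in the order 1, 2, 3). The arrays of each group lay close together and the groups were far apart. Its fold change was 2.02 ± 0.20 SE, or 4.06-fold (limma adjusted p = 0.0396, n = 2 samples per group). A second, dim Ifit3b probe went the other way: its processed signal of 21.2, 31.8 and 28.1 in the controls compared with 6.49, 16.5 and 8.30 after siRNA-MEG3, where no array was well above background. Ifit3 read 0.60, 0.41 and 0.60 against 0.84, 1.53 and 0.79. The groups did not overlap, but siRNA-MEG3 array 2 stood high, and the fold change of 0.67 ± 0.32 was not called (adjusted p = 0.359). Ifit3 and Ifit3b are near-identical copies, and whether RNA of one binds the probe of the other was not tested. Ifit1, which recognises RNA ends that lack the methylation of host caps, read -2.09, -1.77 and -2.14 against -1.02, -1.19 and -1.14. All siRNA-MEG3 arrays were higher, with a fold change of 0.81 ± 0.24 that was not called (adjusted p = 0.189). Ifit2, a neighbour of Ifit3 on the chromosome, had values of -0.35, 0.00 and -0.40 against -0.18, -0.23 and -0.19. The groups overlapped and its fold change was -0.02 ± 0.24 (95% interval -0.67 to 0.62).

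Rsad2 encodes viperin, a radical SAM enzyme that turns CTP into a chain terminator of viral polymerases. Its processed signal before scaling was 9.96, 15.8 and 11.3 in the controls, against 53.4, 59.0 and 53.3 after siRNA-MEG3. It was well above background on all 3 siRNA-MEG3 arrays and on none of the siRNA-NC arrays, so the control level is only a bound. With the control set at the lowest signal that counted as well above background on its array, Rsad2 was at least 4.72-fold higher with siRNA-MEG3. Rsad2 entered the test only through the siRNA-MEG3 group, so the fitted difference of 2.57 ± 0.22 SE (limma adjusted p = 0.0301) is not a size, and its call is no support for the list. Cmpk2, the adjacent gene on the chromosome, encodes a mitochondrial nucleotide kinase. Neither of its probes was well above background on any of the 6 arrays, at signals of 3.53 to 7.08, and it was not measured. With normexp background correction in place of the scanner software's own, the Rsad2 difference was 1.11 and was no longer called (adjusted p = 0.143).

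Usp18 removes the ubiquitin-like protein ISG15 from its targets and damps signalling at the type I interferon receptor. It read -5.09, -5.60 and -5.15 in the controls and -2.59, -2.88 and -2.70 after siRNA-MEG3, well above background on every array. The gap between the groups was several times the spread within either. Its fold change was 2.60 ± 0.27 SE, or 6.05-fold (limma adjusted p = 0.0434, n = 2 samples per group). With normexp it was 1.62 and not called (adjusted p = 0.0707). Isg15 itself was not called: its brighter probe read -0.97, -1.32 and -0.92 against -0.74, -0.93 and -0.78, and the groups overlapped. The fold change was 0.29 ± 0.24 (adjusted p = 0.604, 95% interval -0.38 to 0.95), and a dimmer probe gave -0.73.

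Of the 5 measured genes around ISG15, ubiquitin ligation and ADP-ribosylation, Usp18 rose, 0 fell and 4 were not called. Dtx3l, a ubiquitin ligase that works as a pair with PARP9, read 0.17, -0.78 and -0.09 against 1.22, 0.99 and 1.14. The siRNA-MEG3 arrays were all higher and the control arrays were widely spread, and the fold change of 1.45 ± 0.35 was not called (adjusted p = 0.152). A dim second Dtx3l probe went the other way, with processed signals of 23.2, 24.9 and 19.9 against 6.85, 6.90 and 7.52, all 3 of the latter not well above background. Trim25, the ligase that modifies RIG-I, had a fold change of 0.82 ± 0.25 (adjusted p = 0.207) with no overlap between the arrays. Trim21, a cytosolic antibody receptor, had one of 0.08 ± 0.28. Parp9, Parp14 and Trim30a had spots marked as outliers on siRNA-MEG3 arrays and were not measured. With those spots kept, their fold changes were 0.51, -0.01 and -0.54, none called. Parp14, Dtx3l and Parp9 lie next to each other on the chromosome.

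The interferon-inducible GTPases attack membranes around intracellular pathogens. All 4 measured genes had a fold change above 0, as did 54.3% of all genes, and the median was 1.27. In all 4, all siRNA-MEG3 arrays lay above all siRNA-NC arrays, which held for 29.3% of all genes. None passed limma's threshold, and 3 were higher at an unadjusted p under 0.05, where 12.2% of all genes were. Igtp, an immunity-related GTPase measured by 10 spots per array, read -1.35, -1.47 and -1.30 in the controls and 0.25, 0.15 and 0.21 after siRNA-MEG3. Both groups were tight, and the fold change of 1.59 ± 0.21, or 3.01-fold, came close to the threshold (adjusted p = 0.0594). Gbp3, a guanylate-binding protein, read -0.91, -1.45 and -0.87 against 0.43, 0.29 and 0.41 (1.52 ± 0.28, adjusted p = 0.107). Gbp2, another guanylate-binding protein that lies near Gbp3, read 0.33, 0.48 and 0.22 against 1.47, 1.37 and 1.41 (1.03 ± 0.21, adjusted p = 0.128). In both genes the lowest siRNA-MEG3 array was well over the highest control array. Irgm1, a regulator of the other immunity-related GTPases, moved least, with a fold change of 0.23 ± 0.21 (adjusted p = 0.615), and its second probe gave a value near 0. Mx1 and Mx2, the dynamin-like antiviral GTPases, had no probe among the named ones.

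Zbp1, a sensor of left-handed nucleic acids that can start necroptosis, was the other high member among enzymes and binders of nucleic acid. It read -1.66, -2.03 and -1.65 in the controls and -0.10, -0.17 and -0.14 after siRNA-MEG3. The groups were clearly apart, but the fold change of 1.70 ± 0.24 was not called (adjusted p = 0.0687), and a dimmer probe gave 0.36. On their brightest probes, the remaining 3 genes of this subgroup overlapped between groups. Adar, which edits adenosine to inosine in double-stranded RNA, had a fold change of 0.02 ± 0.20, and its second probe gave 0.52. That second Adar probe read -0.19, -0.86 and -0.37 against -0.02, -0.07 and -0.05, with no overlap between the groups. Isg20, a 3′ to 5′ exonuclease, had one of 0.07 ± 0.33. Samhd1, which degrades deoxynucleotides, had one of -0.23 ± 0.32.

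**Figure D2:**
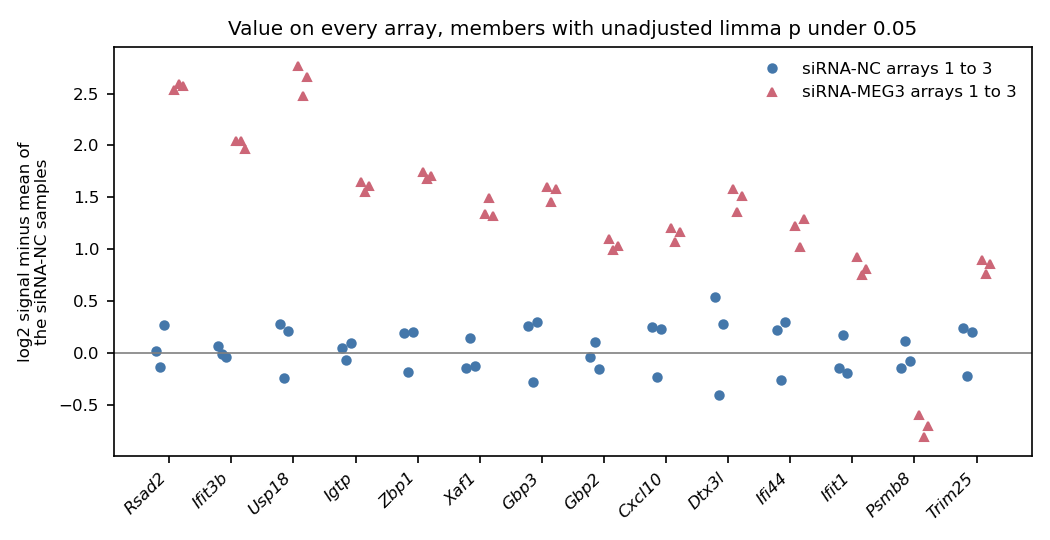
Log2 signal on each array minus the mean of the siRNA-NC samples (vertical axis) for the 14 members with an unadjusted limma p under 0.05, ordered by p; circles are siRNA-NC arrays and triangles siRNA-MEG3 arrays. In 13 of them the triangles lie above all circles, and in Psmb8 they lie below.

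Among the other interferon-induced genes, 6 were measured and none was called by limma, with a median of 0.73. At an unadjusted p under 0.05, 3 were higher, where 12.2% of all genes were. Xaf1, a pro-apoptotic antagonist of XIAP, read -1.40, -1.12 and -1.39 against 0.09, 0.23 and 0.06. Its fold change was 1.41 ± 0.23 (adjusted p = 0.0880), and its dimmer probe gave 0.91. Cxcl10, a chemokine that draws T cells, read -1.64, -2.12 and -1.65 against -0.67, -0.82 and -0.71. Like Xaf1, it was higher on every siRNA-MEG3 array and was not called (1.13 ± 0.26, adjusted p = 0.143). Ifi44 was similar at a far dimmer signal, -4.01, -4.49 and -3.94 against -3.02, -3.21 and -2.94 (1.14 ± 0.28, adjusted p = 0.156). Rtp4 (0.34 ± 0.38) and Ifi27 (0.04 ± 0.39) overlapped between the groups, and Ifi35 had a fold change of -0.30 ± 0.22. Ifi203 had no probe among the named ones.

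The membrane restriction factors keep enveloped viruses from entering or leaving the cell. All 4 had fold changes above 0, as did 54.3% of all genes. None was called (limma adjusted p from 0.421 to 0.950, 0 at an unadjusted p under 0.05). Ifitm3, which blocks fusion in endosomes and was measured by 10 spots, read 5.46, 5.67 and 5.45 against 6.02, 5.92 and 5.94. The groups did not overlap, and the fold change was 0.39 ± 0.22. Ifitm2 gave the widest control spread of all members, 2.83, 3.90 and 2.82 against 3.94, 3.85 and 3.97, where siRNA-NC array 2 sat among the siRNA-MEG3 arrays. Its fold change was 0.55 ± 0.42. Bst2, or tetherin, which holds budding virions on the cell surface, had a fold change of 0.22 ± 0.20, and Ifitm1 one of 0.06 ± 0.34.

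The 3 transcription factors that carry the signal were not called by limma, and 0 passed an unadjusted p under 0.05. Irf9, the DNA-binding part of the type I complex, read 0.69, 0.00 and 0.73 against 1.13, 0.75 and 1.01. Its siRNA-MEG3 arrays were all higher by a narrow margin, and the fold change was 0.55 ± 0.33 (adjusted p = 0.457). Stat2, its partner, had one of 0.21 ± 0.24. Irf1 read 3.36, 2.83 and 3.35 against 3.17, 3.07 and 3.07, with equal group means and a 95% interval of the difference from -0.73 to 0.73.

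The antigen processing genes make peptides in the immunoproteasome (Psmb8, Psmb9, Psmb10), carry them into the endoplasmic reticulum (Tap1, Tap2) and load them on class I molecules (Tapbp, B2m). Of 6 measured, limma called 0 higher and 0 lower, and 5 had fold changes below 0. Of all genes tested, 54.3% were above 0. Psmb8 read -3.22, -2.96 and -3.16 in the controls and -3.68, -3.89 and -3.78 after siRNA-MEG3. It was the 1 member that was lower at an unadjusted p under 0.05, with a fold change of -0.73 ± 0.22 (adjusted p = 0.198). Tap2, next to Psmb8 on the chromosome, read 0.56, 0.41 and 0.61 against 0.18, 0.04 and 0.14. All siRNA-MEG3 arrays were lower, and the fold change was -0.40 ± 0.21 (adjusted p = 0.404). B2m, the light chain of every class I molecule, read 7.04, 6.59 and 7.21 against 6.68, 6.30 and 6.61. The groups overlapped through siRNA-NC array 2, with a fold change of -0.38 ± 0.30 (adjusted p = 0.561). Psmb9 (-0.18 ± 0.21) and Psmb10 (-0.16 ± 0.26) had fold changes smaller than their SE. Tapbp, or tapasin, was the exception in direction, at 2.27, 2.28 and 2.16 against 2.65, 2.59 and 2.61, a fold change of 0.36 ± 0.20 (adjusted p = 0.423). Tap1 was too dim to measure: it was well above background on 1 siRNA-NC array and no siRNA-MEG3 array.

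The rest of the interferon pathway was described from a separate list of 44 genes, of which 43 had a probe and 36 were measured. None rose or fell by limma, where 1.11% and 0.418% of all genes did. At an unadjusted p under 0.05, 0 were higher and 1 was lower, where 12.2% and 7.35% of all genes were. The median was 0.09, against 0.06 over all genes. Of the ligands, Ifnb1 and Ifna4 were not well above background on any array, and the 5 measured ranged from -0.11 to 0.49. Ifng, the ligand with the smallest p, was dim in both groups at -4.03, -4.68 and -4.09 against -3.89, -3.85 and -3.93 (0.49 ± 0.29, adjusted p = 0.452). Of the receptors, Ifngr2 had the smallest p and a fold change of 0.19 ± 0.20 (adjusted p = 0.683). Ifnar2 had outlier spots and was not measured. Of the signalling genes, Tyk2, a receptor-bound kinase, had the smallest p and a fold change of -0.86 ± 0.41 (adjusted p = 0.357). Irf7 and Irf8, transcription factors of the same family as Irf9, were not well above background on any array and were not measured.

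The class I genes outside the 45 were not called either. Of 15 measured, 9 had fold changes below 0, with a median of -0.21. Of all genes tested, 54.3% were above 0. H2-K1, a classical class I heavy chain, read 4.40, 4.06 and 4.44 in the controls and 3.47, 3.39 and 3.42 after siRNA-MEG3. All siRNA-MEG3 arrays were lower, with a fold change of -0.83 ± 0.24 (adjusted p = 0.186). On its second probe all 3 siRNA-MEG3 arrays lay between control arrays 1 and 3 (2.17 and 2.13) and control array 2 (3.21), with a fold change of -0.38. H2-D1, the other classical heavy chain measured, was singled out after its values were seen. It read 2.25, 3.44 and 2.43 against 1.95, 1.83 and 1.92, a fold change of -1.01 ± 0.43 (adjusted p = 0.303) in which siRNA-NC array 2 stood far above the other control arrays. Among the constitutive proteasome subunits that the immunoproteasome replaces, Psmb7 had a fold change of 0.56 ± 0.24 (adjusted p = 0.317), Psmb5 of -0.18 ± 0.34 and Psmb6 of -0.02 ± 0.35. Class I genes are highly polymorphic and similar in sequence, and cross-binding between their probes was not tested.

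**Figure D3:**
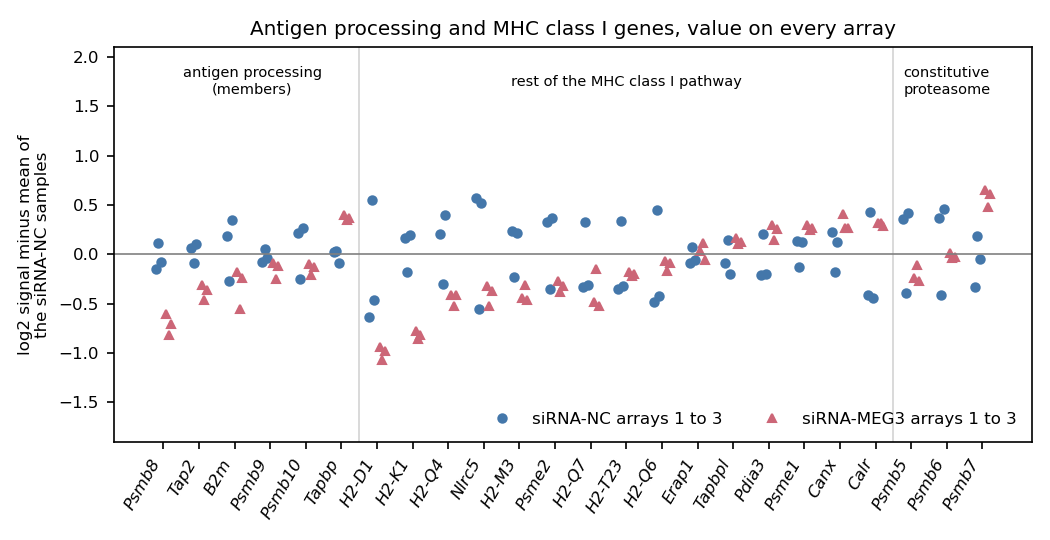
Log2 signal on each array minus the mean of the siRNA-NC samples (vertical axis) for the 6 measured antigen processing genes, 15 further class I genes and 3 constitutive proteasome subunits; circles are siRNA-NC arrays and triangles siRNA-MEG3 arrays. Triangles lie below all circles for Psmb8, Psmb9, Tap2, H2-K1, H2-D1, H2-Q4 and H2-M3 (7 of 24 genes, against 17.8% of all genes) and above them for Tapbp, Canx, Psme1 and Psmb7 (4 of 24, against 29.3%); none of these genes was called.

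Promoter matches and changes were set side by side as a description. Of the 14 measured genes with an ISRE core in the window, 13 had a fold change above 0 and the median was 0.74. Of the 18 whose window held none, 11 were above 0 and the median was 0.07. Of all genes tested, 54.3% were above 0. The second set holds the antigen processing genes Psmb8, Psmb9, Psmb10 and Tapbp, so motif and subgroup were not told apart. The first set holds Rsad2, which was tested only through the group where it is high. The other 5 had no window in the table, among them Usp18. The genes with a core were Ifit1, Ifit3, Ifit3b, Gbp2, Gbp3, Igtp, Irgm1, Rsad2, Cxcl10, Isg15, Stat2, Bst2, Ifitm2 and B2m. Dtx3l and Xaf1 were high without one, at 1.45 and 1.41.

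All 5 marker genes of the C2C12 line were measured on every array, and genes of myotubes were far higher in one group. Summed over 10 myotube genes, with 1 being the 75th percentile of the array, the level was 7.59 to 9.03 on siRNA-NC arrays and 57.2 to 62.8 on siRNA-MEG3 arrays, and 7 of the 10 rose, among them Myog, the myogenic transcription factor (3.46 ± 0.22, limma adjusted p = 0.0222). Summed over 5 genes of the C2C12 line it was 12.2 to 12.8 against 22.1 to 22.9, but these genes did not move together and none was called. Itga7, an integrin, had a fold change of 0.82 ± 0.21 (adjusted p = 0.159) and Myod1, the muscle determination factor, one of 2.29 ± 0.43 (adjusted p = 0.110). Myf5, its relative in undifferentiated myoblasts, had one of -2.87 ± 0.41 (adjusted p = 0.0702), and Des, desmin, one of -0.22 ± 0.59. The summed level of 8 immune cell genes was 1.59 to 2.22 against 1.33 to 1.82, and none of the 6 measured was called. The leukocyte marker Ptprc was well above background on 3 siRNA-NC arrays and 1 siRNA-MEG3 array, and Itgax on none. That of 5 endothelial genes was 0.926 to 0.980 against 1.02 to 1.38, and none of the 3 measured was called. Their part in the results above was not tested. In RNA from a whole dish, a different number of responding cells and a different amount of RNA per cell cannot be told apart.

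The calls of Rsad2, Usp18 and Ifit3b were followed across the settings. In the plot of 5 members by setting, each stayed above 0 everywhere: Ifit3b ranged from 1.78 to 2.05, Usp18 from 1.62 to 2.72 and Rsad2 from 1.11 to 2.71. Of 17 alternatives, the call was lost in 3 for Ifit3b and in 4 each for Usp18 and Rsad2. Among these were no filter on dim probes and leaving out siRNA-NC array 2, where the limma adjusted p of Ifit3b was 0.114 and 0.130. Igtp and Zbp1 took over from Rsad2 and Usp18 with normexp, at 1.45 (adjusted p = 0.0485) and 1.64 (adjusted p = 0.0428). Both also passed with the 6 arrays counted as 6 samples.

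**Figure D4:**
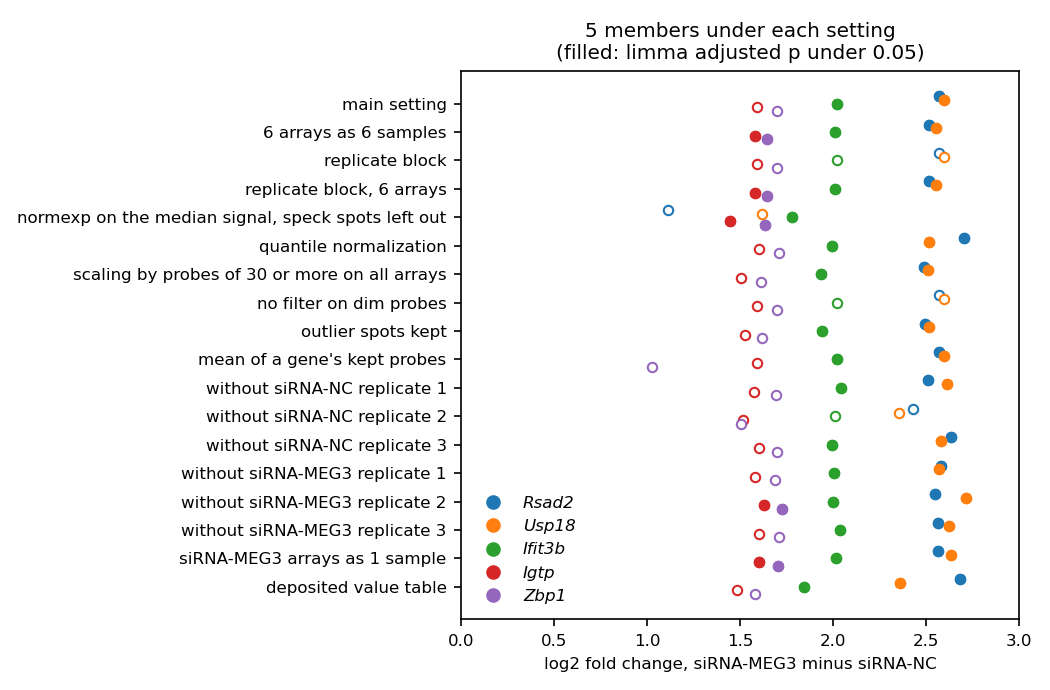
Log2 fold change (horizontal axis) of Rsad2, Usp18, Ifit3b, Igtp and Zbp1 in the main setting and 17 alternatives (rows); filled points had a limma adjusted p under 0.05. All points lie right of 0; the leftmost is Zbp1 with the mean of its probes, at 1.03, and the next is Rsad2 with normexp, at 1.11.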

How the data were processed

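The members and gene lists were chosen with earlier results of these data known. Per the file headers, Agilent Feature Extraction 11.0.1.1 wrote the deposited scanner files, whose processed intensity per spot was already background-subtracted; a median and a background intensity stand beside it. The authors' deposited table gives log2 values for 30732 probes. Its columns all had a median of 8.11 and correlated with the log2 processed intensity at 0.9991 to 0.9997, which fixes scale and direction; how the arrays were scaled to each other is unknown. Per the labels, probes at an intensity of 30 or more on every array set the normalization factor.

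Here, control spots and outlier-marked spots were dropped, a probe's spots were averaged, and log2 processed intensity was centred on each array's 75th percentile (1283, 2266 and 1220 for siRNA-NC; 1199, 1271 and 1168 for siRNA-MEG3). RefSeq accessions of GRCm38.p6 named 27234 of 39429 probes; 12195 kept their accession. A probe needed to be well above background throughout 1 group and usable in all 4 samples, and a gene was read from its brightest such probe. The test was limma 3.58.1 (R 4.3.3, 2-sided) with Benjamini-Hochberg adjustment over 22033 genes and a threshold of 0.05. Arrays were compared on 240 probes with 10 spots each and joined only if every pair among them differed by no more than spot noise (p of at least 0.05) or shared it (r of at least 0.9). Arrays 2 and 3 of siRNA-MEG3 exceeded that noise (ratio 1.26), so array 2 stayed apart. Precision is limited by the number of samples. The code was tested on simulated data.

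Named genes were all members by subgroup, with full statistics for those past the threshold and the smallest p of each subgroup, and the smallest p of each pathway subgroup. Alternatives concerned the samples counted, a replicate block, background correction, scaling, filters, probe choice, the deposited table and each array left out; 1 alternative, all siRNA-MEG3 arrays as 1 sample, was added after seeing the data. Same-numbered arrays did not deviate together (correlations 0.0076, 0.044 and 0.055).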

Additional observations from a re-analysis of the deposited data

How the results depend on the processing

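Over 17 alternatives the median over the members ranged from 0.199 to 0.351; each differed from the main value, 0.34, by less than the pooled SD of the samples' medians, 0.18. The count of members called higher, 3 in the main setting (1.11% of all genes), was 15 with 6 arrays as 6 samples (17.2% of all genes; with 2 members lower, Psmb8 and Tap2), 0 with the replicate block (0.59% of all genes; 11 members higher at an unadjusted limma p under 0.05), 13 with the replicate block and 6 arrays (9.04%), 5 with the siRNA-MEG3 arrays as 1 sample (2.43%; chosen after seeing the data) and 0 with no filter on dim probes, where 32142 genes were tested and 0 passed in all (13 members higher and 1 lower at an unadjusted p under 0.05). With the replicate block the limma adjusted p was 0.0621 for Rsad2, 0.0824 for Ifit3b and 0.0596 for Usp18. With single arrays left out the count ranged from 0 to 7. The causes were not tested. The arrays share only a number, since same-numbered ones did not deviate together. Of the other pathway genes, 0 were called in the main setting; 1 was higher (Psmb7) and 1 lower (H2-K1) with 6 arrays as 6 samples, 1 was lower (H2-K1) with the replicate block and 6 arrays, and 0 to 1 were higher with single arrays left out. Normexp moved the median of all genes from 0.06 to 0.18. Of the 37 members, 27 never changed sign. The other 10 did, and were at most 0.34 in size in the main setting. With 6 arrays, with or without the replicate block, the values were -0.19 for Ifi27, 0.048 for Ifit2, -0.043 for Ifitm1, -0.041 for Isg20 and -0.051 for Trim21. With normexp they were -0.061 for Ifitm1, 0.030 for Irf1, -0.16 for Isg20 and 0.11 for Psmb9. With the labels' scaling they were -0.065 for Adar, -0.049 for Ifi27, -0.024 for Ifitm1, -0.014 for Isg20 and -0.0083 for Trim21. With outlier spots kept the same genes gave -0.058, -0.042, -0.017, -0.0073 and -0.0013. With the mean of probes Isg15 was -0.22 and Isg20 -0.0028, with the siRNA-MEG3 arrays as 1 sample Ifi27 was -0.054 and Irf1 0.0081, and in the deposited table Adar was -0.056 and Trim21 -0.0012. With single arrays left out, Adar ranged from -0.012 to 0.054, Ifi27 from -0.37 to 0.049, Ifit2 from -0.033 to 0.16, Ifitm1 from -0.34 to 0.14, Irf1 from -0.26 to 0.024, Isg20 from -0.30 to 0.16, Rtp4 from -0.13 to 0.35 and Trim21 from -0.18 to 0.13. Signal limits Rsad2, which was not well above background on any control array.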
